A study of Homo sapiens with 9 samples.

Results

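The MHC class I presentation genes examined here are 9 genes chosen by name: HLA-B, HLA-C, HLA-E, B2M, TAP1, TAP2, TAPBP, PSMB9 and NLRC5. All 9 have a row in the deposited count table, out of 34922 rows that name no vector gene, and 8 of them passed the filter on low counts that left 17073 genes for testing. RNA was measured in 9 libraries of TC71, an established human Ewing sarcoma line, grown in NSG mice, which lack T cells, B cells and natural killer cells and keep myeloid cells. According to the design text, the flank received 100 cells mixed with Matrigel, and once a tumour was 1.5 cm across the sarcoma cells were sorted from bone marrow, lung and the primary tumour. There were 4 bone marrow metastasis libraries, 4 lung metastasis libraries and 1 primary tumour library, all from the same line in the same host strain, and the labels name no treatment. The labels do not tie libraries to mice, so p-values here measure only the spread among these samples, which may be technical.

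MHC class I molecules carry peptides from inside the cell to its surface, where CD8 T cells and natural killer cells read them. The molecule is a polymorphic heavy chain (HLA-B and HLA-C here) or the conserved HLA-E, paired with the light chain beta-2-microglobulin, B2M. Peptides are cut by the proteasome, in part by the inducible subunit PSMB9, pumped into the endoplasmic reticulum by the TAP1 and TAP2 transporter, and loaded with the help of tapasin, TAPBP. NLRC5 is a transcriptional coactivator of class I genes, acting through the promoter's X and Y boxes. Ewing sarcomas are known for low and variable surface class I.

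The promoters below were chosen from the values of these genes. HLA-B and HLA-C are neighbours with similar promoter windows, and their counts diverged between libraries. B2M, shared by all class I molecules, was the highest member per kilobase on average at both sites. TAP1 had 0 counts in 4 of the 8 metastasis libraries. The sequences are RefSeq's for GRCh38.p14, 300 bases from 250 before to 50 after the start of the gene, 5′ to 3′ on the gene's own strand. Capitals mark any match, on either strand, to one of the motifs named after the sequences.
HLA-B (chr6:31357130-31357429, minus strand): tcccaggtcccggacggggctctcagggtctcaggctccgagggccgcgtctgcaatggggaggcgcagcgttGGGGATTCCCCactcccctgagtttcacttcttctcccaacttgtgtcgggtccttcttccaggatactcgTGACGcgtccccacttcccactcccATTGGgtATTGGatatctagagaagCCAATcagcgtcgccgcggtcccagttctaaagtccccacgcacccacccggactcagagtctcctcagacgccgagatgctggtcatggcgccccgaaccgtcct
HLA-C (chr6:31272043-31272342, minus strand): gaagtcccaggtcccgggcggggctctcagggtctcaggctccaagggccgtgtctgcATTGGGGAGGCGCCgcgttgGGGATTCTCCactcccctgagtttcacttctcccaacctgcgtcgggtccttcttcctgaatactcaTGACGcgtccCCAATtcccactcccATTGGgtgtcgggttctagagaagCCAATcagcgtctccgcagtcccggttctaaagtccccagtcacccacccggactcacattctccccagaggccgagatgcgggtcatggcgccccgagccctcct
B2M (chr15:44711267-44711566, plus strand): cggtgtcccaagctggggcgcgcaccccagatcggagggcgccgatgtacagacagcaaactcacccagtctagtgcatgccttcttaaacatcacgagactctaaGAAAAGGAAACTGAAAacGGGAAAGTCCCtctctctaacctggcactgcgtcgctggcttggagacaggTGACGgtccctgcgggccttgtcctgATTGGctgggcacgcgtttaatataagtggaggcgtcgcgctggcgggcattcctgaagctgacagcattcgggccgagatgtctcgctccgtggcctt
TAP1 (chr6:32853655-32853954, minus strand, the first of its 2 start sites): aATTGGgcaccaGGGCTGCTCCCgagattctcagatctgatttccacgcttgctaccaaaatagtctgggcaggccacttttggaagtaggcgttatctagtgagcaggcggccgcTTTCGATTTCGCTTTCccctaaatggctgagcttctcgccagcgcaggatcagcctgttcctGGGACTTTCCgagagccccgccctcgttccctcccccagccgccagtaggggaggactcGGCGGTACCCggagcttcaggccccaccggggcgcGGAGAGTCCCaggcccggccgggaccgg

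The HLA-B and HLA-C windows had 269 identical letters and 27 mismatches, 88.5% of their alignment, gaps counted. The interferon response element core, searched on both strands as GAAA, any 2 bases and GAAA, was found in the windows of B2M, TAP1, TAP2 and TAPBP, and in 3.57% of 35116 RefSeq windows of that length. B2M, TAP1 and TAPBP had 2 overlapping matches each. It was not found in the windows of HLA-B, HLA-C and PSMB9, which says only that these letters are not there. The CREB and ATF core, TGACG, was in HLA-B, HLA-C, B2M, TAP2 and PSMB9, against 24.6% of all windows, and CCAAT, the NF-Y box, was in HLA-B, HLA-C, B2M, TAP1 and PSMB9, against 34.6%. The NF-kB motif, searched as GGG, any 5 bases and CC and found in 58.7% of windows, was in the windows of all these genes but PSMB9. STAT site cores (TTC, any 3 bases, GAA; 7.66%) were found at the second TAP1 start only, and tandem GGAAGGAA (3.67%) in none. No window was listed for HLA-E and NLRC5.

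All tested markers of the labelled cell type had counts in every library, though at uneven levels. FLI1, the listed marker that was not tested, did not pass the filter on low counts, so this check does not hold for it. Of 12 Ewing sarcoma markers 11 were tested, and the 12 together summed to 2911 to 4472 CPM in bone marrow libraries, 2835 to 4001 CPM in lung libraries and 4391 CPM in the primary tumour. EWSR1 did not overlap between sites, at 385 ± 202 CPM in bone marrow libraries and 135 ± 38.6 CPM in lung libraries (SD, n = 4 each; edgeR adjusted p 0.349, DESeq2 adjusted p 0.0240). LIPI was at 0.0704 and 0.436 CPM in lung replicates 2 and 4. Its value in lung replicate 2 was below the 0.211 CPM that 3 counts give in that library. Between 77.6 and 79.1% of the reads in bone marrow libraries were human, 72.7 to 77.3% in lung and 78.1% in the primary tumour. Reads assigned to mouse were 7.00 to 8.09% over all 9 libraries. Unaligned reads were 18.94 to 20.32% in bone marrow and 20.37 to 24.65% in lung. Mitochondrial rRNA was 0.0956 to 0.218% in bone marrow and 0.359 to 0.491% in lung. The sites did not overlap in human, unaligned or mitochondrial rRNA reads, and these measures cannot be told apart from the site. Mouse, not uniquely aligned and protein-coding reads overlapped. Each library held between 11549684 and 17910622 estimated counts. Expression values are given as CPM, counts divided by a library size corrected with TMM factors. In bulk RNA, fewer cells that express a gene and less RNA per cell cannot be told apart.

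The comparison of bone marrow with lung asks how the same line differs between metastatic sites. In edgeR's quasi-likelihood test with Benjamini-Hochberg adjustment over all genes, none of the 8 tested members passed, with adjusted p between 0.477 and 0.992, where 0.00586% of all tested genes did. DESeq2 called 0 members, against 3.37% of its genes, and limma voom 0, against 0.0351%. At an unadjusted edgeR p below 0.05 there were 2 members of 8, HLA-E and TAP2, against 10.2% of all tested genes. The sites overlapped for every member, where 5.87% of all genes had no overlap. The signs were mixed: 3 were higher and 5 lower in bone marrow, where 49.9% of all genes were higher. Their median log2 fold change was -0.08, beside 0.00 for all tested genes. The plot of fold changes shows both comparisons.

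**Figure D1:**
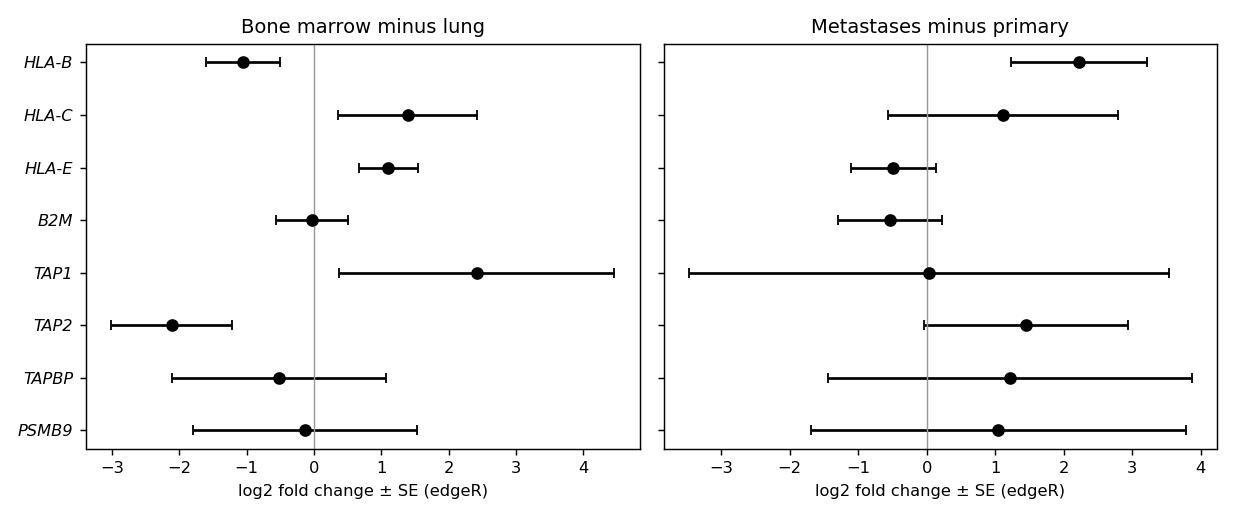
Log2 fold change ± SE from edgeR for the 8 tested members, bone marrow minus lung on the left and metastases minus the primary library on the right; the vertical line is 0. HLA-E and HLA-C lie right of 0 and HLA-B and TAP2 left of 0 for bone marrow minus lung, and none passed the adjusted test.

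HLA-E, the heavy chain whose peptides come mostly from other class I leader sequences, is read by NKG2A and related receptors of natural killer cells (chromosome 6, 30489467 to 30494205, plus strand, GENCODE 29). Its bone marrow values were 67.7, 96.1, 107 and 111 CPM in replicates 1 to 4. Its lung values were 35.5, 30.9, 88.1 and 23.3 CPM. Lung replicate 3 alone reached into the bone marrow range, and the primary library, at 91.1 CPM, lay within that range too. The log2 fold change was 1.10 ± 0.44 (SE), and the adjusted p was 0.477 by edgeR and 0.209 by DESeq2. Means were 95.4 ± 19.4 CPM in bone marrow libraries and 44.4 ± 29.5 CPM in lung libraries (SD, n = 4 each). Without lung replicate 3 the log2 fold change was 1.68 (edgeR adjusted p 0.321).

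HLA-B and HLA-C, the classical chains, lie beside each other on chromosome 6 (HLA-B 31269491 to 31357188, HLA-C 31268749 to 31272130, minus strand), where their GENCODE annotations overlap. HLA-B was at 11.99, 10.4, 11.5 and 21.8 CPM in bone marrow libraries and at 12.6, 22.9, 56.9 and 23.8 CPM in lung libraries, against 4.30 CPM in the primary library. Every metastasis library was above the primary one, while the sites overlapped. Means were 13.9 ± 5.27 CPM in bone marrow libraries and 29.03 ± 19.3 CPM in lung libraries (SD, n = 4 each). The log2 fold change was -1.06 ± 0.55 (SE; edgeR adjusted p 0.501). Without lung replicate 3, the highest library, it was -0.49. HLA-C was at 11.5, 14.7, 22.1 and 36.8 CPM in bone marrow libraries, and at 2.80, 26.6, 1.99 and 0.872 CPM in lung libraries. Lung replicate 2 stood alone among the lung libraries, and the primary library was at 6.06 CPM. Its log2 fold change was 1.40 ± 1.03 (SE), edgeR adjusted p 0.652, and without lung replicate 2 it was 3.49 with an adjusted p of 0.283. So HLA-B and HLA-C had opposite signs for bone marrow minus lung, and neither passed.

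**Figure D2:**
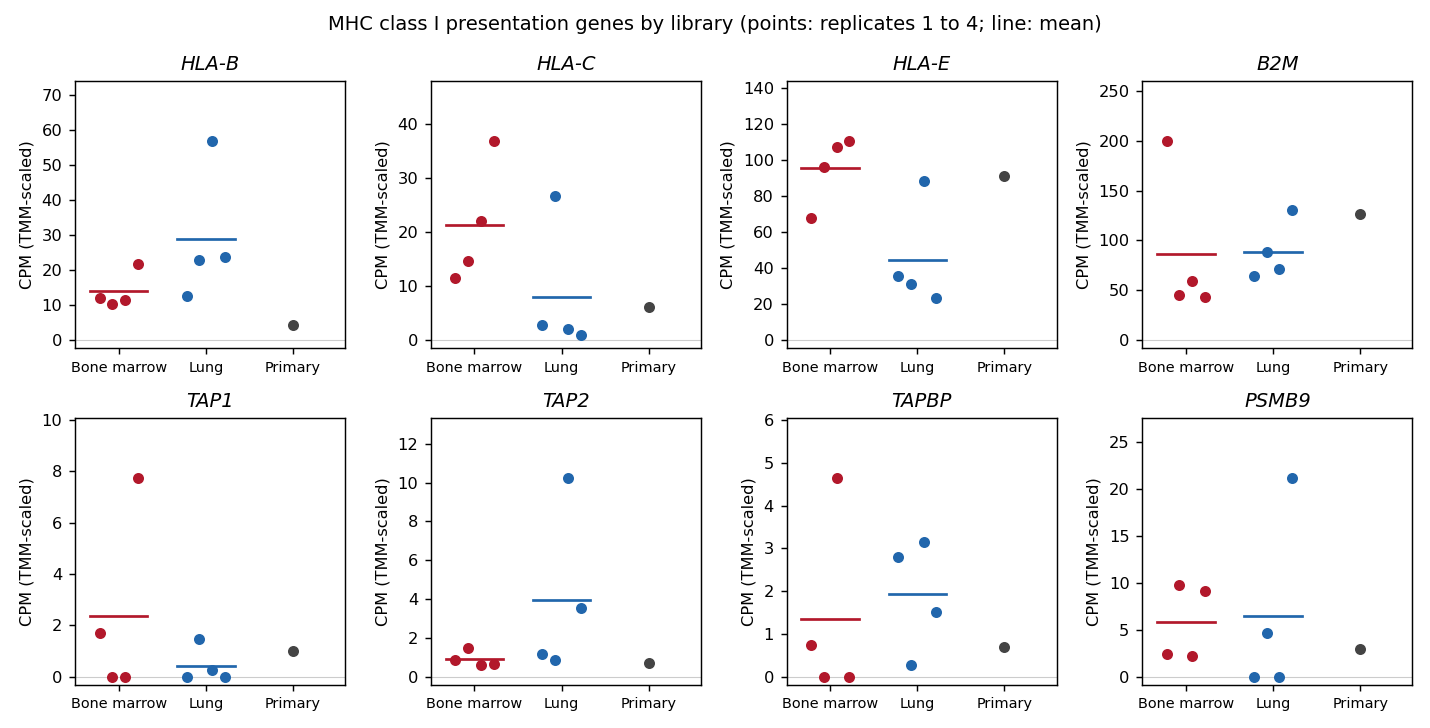
CPM of each tested member, with 1 point per library for bone marrow, lung and the primary tumour; the line is the mean of 4 libraries, and each panel has its own scale. HLA-E is high in all bone marrow libraries, lung replicate 3 and the primary library. HLA-C is high in all bone marrow libraries and lung replicate 2, and TAP1, TAPBP and PSMB9 have libraries at 0.

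Read sharing limits how the heavy chains can be told apart. Of the distinct 31-base words in GENCODE 29 coding transcripts, 31.4% of those of HLA-B, 19.6% of those of HLA-C and 13.03% of those of HLA-E also occur in transcripts of other genes. The line's own alleles can also differ from the reference, so the split of reads between HLA-B, HLA-C and related chains is uncertain. Per kilobase of the principal transcript, HLA-B and HLA-C were close in bone marrow replicate 1, at 7.75 and 7.47 CPM per kb. In lung replicates 3 and 4, HLA-B was at 36.8 and 15.4 CPM per kb, and HLA-C at 1.29 and 0.568.

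**Figure D3:**
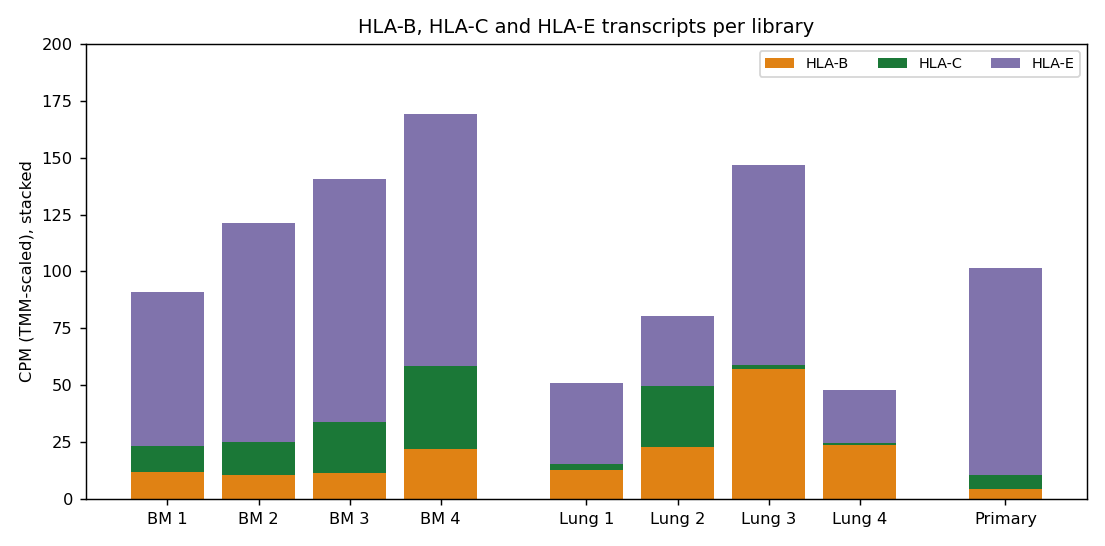
Stacked bars of HLA-B, HLA-C and HLA-E, in CPM, for each library of bone marrow (BM), lung and the primary tumour. The HLA-C segment is thin in lung replicates 1, 3 and 4, and the HLA-E segment is shortest in lung replicates 1, 2 and 4.

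B2M, the light chain shared by all class I molecules (chromosome 15, 44711487 to 44718877, plus strand), shares none of its 31-base words with other genes. It was at 200.0, 45.0, 58.9 and 42.9 CPM in bone marrow libraries, at 64.0, 88.9, 71.1 and 130 CPM in lung libraries, and at 127 CPM in the primary library. Bone marrow replicate 1 was above all other libraries, and the other 3 bone marrow libraries were below all 4 lung libraries. The log2 fold change was -0.03 ± 0.53 (SE; edgeR adjusted p 0.992). Without bone marrow replicate 1 it was -0.84. B2M did not follow HLA-E: the library highest in B2M was the lowest of the bone marrow libraries in HLA-E.

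The peptide transporter and tapasin were scarce. TAP1 (chromosome 6, 32845209 to 32853978, minus strand) was at 1.70, 0, 0 and 7.76 CPM in bone marrow libraries, at 0, 1.48, 0.248 and 0 CPM in lung libraries, and at 0.997 CPM in the primary library. A count of 0 allows up to 0.183 CPM in bone marrow replicate 2, 0.209 in replicate 3, 0.255 in lung replicate 1 and 0.218 in lung replicate 4, at 3 counts and for counting error only. TAP1 gave a log2 fold change of 2.42 ± 2.05 (SE, edgeR adjusted p 0.704) and 0.37 without bone marrow replicate 4. TAP2, its partner in the transporter (chromosome 6, 32821833 to 32838780), was at 0.888, 1.47, 0.626 and 0.652 CPM in bone marrow libraries and at 1.19, 0.844, 10.3 and 3.56 CPM in lung libraries, with 0.690 CPM in the primary library. Its log2 fold change was -2.11 ± 0.90 (SE, edgeR adjusted p 0.486) and -1.03 without lung replicate 3, where its level was highest. TAPBP, which bridges the transporter and the heavy chain, was at 0.740, 0, 4.66 and 0 CPM in bone marrow libraries and at 2.80, 0.281, 3.15 and 1.53 CPM in lung libraries, with 0.690 CPM in the primary library. Its log2 fold change of -0.52 ± 1.59 (SE, edgeR adjusted p 0.942) became -2.95 without bone marrow replicate 3. TAP1 and TAP2 thus had opposite signs, and none of TAP1, TAP2 and TAPBP was above 10.3 CPM in any library. Of the words of TAP2, 32.97% also occur in transcripts of other genes, chiefly AL669918.1, and for TAP1 16.3%, mostly PSMB8-AS1.

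PSMB9, the immunoproteasome subunit encoded back to back with TAP1 (chromosome 6, 32844136 to 32859585, plus strand), was at 2.44, 9.77, 2.22 and 9.13 CPM in bone marrow libraries and at 0, 4.64, 0 and 21.2 CPM in lung libraries. The primary library was at 2.99 CPM. Lung held both the highest and the lowest values, and the log2 fold change was -0.13 ± 1.66 (SE, edgeR adjusted p 0.989). Its sign turned without lung replicate 4, at 1.92, and without bone marrow replicate 1 or 3, at 0.13 and 0.14. NLRC5, the coactivator (chromosome 16, 56989485 to 57083531, plus strand), had 0 counts in all 9 libraries, which allows up to 0.183 to 0.255 CPM per library. None of its 31-base words is shared with other genes.

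Each metastasis library was left out in turn to see which values rest on 1 library.

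**Figure D4:**
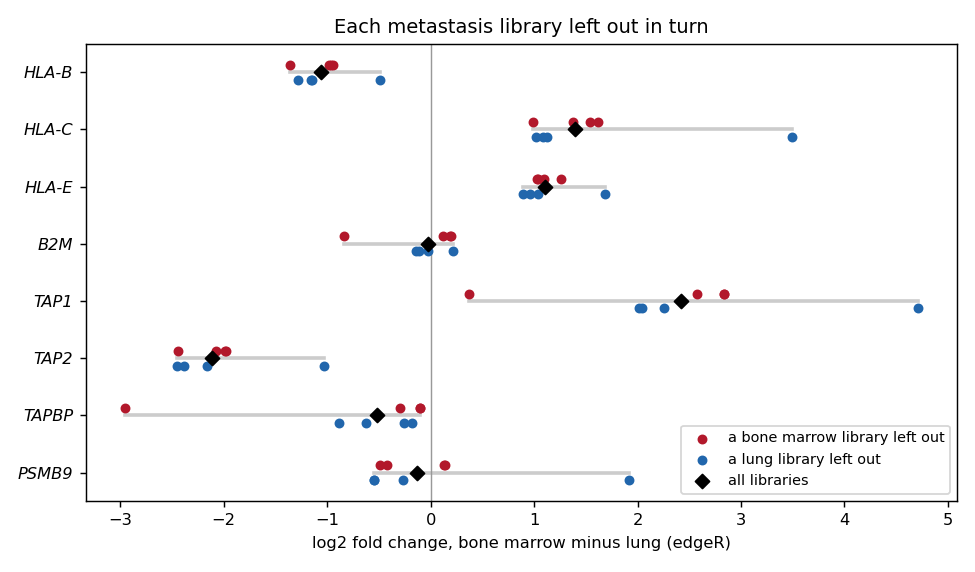
Log2 fold change of bone marrow minus lung from edgeR with all libraries (diamond) and with each bone marrow or lung library left out (points). HLA-E stays between 0.89 and 1.68 and HLA-B between -1.36 and -0.49, whereas B2M and PSMB9 change sign.

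Per kilobase of principal transcript, B2M was the highest member in bone marrow, at 80.2 ± 70.2 CPM per kb, then HLA-E at 36.7 ± 7.47, HLA-C at 13.8 ± 7.35, HLA-B at 9.01 ± 3.40 and PSMB9 at 7.53 ± 5.26 (SD, n = 4). In lung B2M was at 81.9 ± 27.4, HLA-B at 18.8 ± 12.5, HLA-E at 17.1 ± 11.4, PSMB9 at 8.27 ± 12.9 and HLA-C at 5.25 ± 8.06 CPM per kb (SD, n = 4). The scarce members followed, in bone marrow TAP1 at 0.799 ± 1.25, TAPBP at 0.715 ± 1.18 and TAP2 at 0.364 ± 0.156, and in lung TAP2 at 1.59 ± 1.75, TAPBP at 1.03 ± 0.692 and TAP1 at 0.146 ± 0.239 CPM per kb (SD, n = 4 each). In the primary library B2M was at 117, HLA-E at 35.0, HLA-C at 3.95, PSMB9 at 3.83 and HLA-B at 2.78 CPM per kb. Neighbours in the orders for the sites differed by less than the larger of their SDs, other than HLA-E and HLA-C, and PSMB9 and TAP1, in bone marrow, and B2M and HLA-B, and TAPBP and TAP1, in lung. B2M and HLA-E in bone marrow cannot be ordered, because B2M without replicate 1 was at 39.7 to 54.5 CPM per kb, and HLA-E at 26.03 to 42.5 over 4 libraries.

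The metastases were then set against the primary tumour library, which has no replicate, so that the test sets 1 library against the spread of the metastasis libraries. In edgeR 0 of 8 members passed, with adjusted p of 0.9999 for each, where 0% of all tested genes did. DESeq2 called 0 members, against 0.73% of its genes, and limma voom 0, against 0.281%, and an unadjusted edgeR p below 0.05 was reached by 0 members, against 4.79% of genes. Of 8 members, 6 were higher in metastases, as were 57.5% of all tested genes. Their median log2 fold change was 1.08, beside 0.17 for all tested genes. HLA-B alone had the primary library outside all 8 others, as 17.6% of tested genes did, 7.57% in this direction. Its mean over both sites gave a log2 fold change of 2.23 ± 0.99 (SE, edgeR adjusted p 0.9999). HLA-E and B2M were lower in metastases on average, with log2 fold changes of -0.48 ± 0.62 and -0.53 ± 0.76 (SE). For HLA-E, the primary value lay above 5 of the 8 metastasis libraries, and for B2M above 6. HLA-C was at 1.11 ± 1.68, TAP1 at 0.03 ± 3.50 and TAP2 at 1.448 ± 1.486 (SE). TAPBP was at 1.215 ± 2.66 and PSMB9 at 1.04 ± 2.74 (SE). Each of these members had an SE above its value. HLA-C was at 0.064 without lung replicate 2 and TAPBP at 7.1e-05 without bone marrow replicate 3. PSMB9 was at 0.017 without lung replicate 4.

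The spread within a site was uneven between members, above that of genes of like level in some groups and at or below it in others. The coefficient of variation over 4 libraries was 20.4% for HLA-E in bone marrow and 66.5% in lung, where genes within 0.5 log2 CPM of its level had medians of 33.6% and 36.7%. For B2M it was 87.5% in bone marrow and 33.5% in lung, against like-level medians of 30.7% and 31.8%. For HLA-C it was 53.1% in bone marrow, against 52.75%, and 154% in lung, against 69.7%. For HLA-B it was 37.8% in bone marrow and 66.45% in lung, against 48.0% and 62.15%. For TAP2 it was 42.95% in bone marrow and 110% in lung, against 81.3% and 89.4%. No single library was high for every member. Bone marrow replicate 4 was highest of all 9 for HLA-C, HLA-E and TAP1, and lung replicate 3 for HLA-B and TAP2. Lung replicate 4 was highest for PSMB9, bone marrow replicate 1 for B2M and bone marrow replicate 3 for TAPBP. Across all 9 libraries, the 3 genes whose log2(CPM + 1) was most like HLA-E, of 6126 compared, were PRKAB1, SOHLH2 and POLI, with Pearson r of 0.97, 0.96 and 0.95. For HLA-B they were NEIL2, POP5 and NTAN1 (0.94, 0.93 and 0.92), and for B2M they were MGST3, BLOC1S2 and PGRMC2 (0.89, 0.88 and 0.87). These are descriptions, and no member was among them.

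Other genes of the pathway were set beside the members, and in edgeR 0 of them passed over all genes in either comparison. Of 9 genes of the immunoproteasome, its regulators and the standard catalytic subunits, 3 were higher and 6 lower in bone marrow (median log2 fold change -0.19). PSMB8, the neighbouring inducible subunit, was at 1.33, 0.0610, 1.39 and 1.24 CPM in bone marrow libraries, and at 8.65, 2.67, 0.0828 and 60.9 CPM in lung libraries. PSMB8 and PSMB9 were both highest in lung replicate 4, and 12.3% of the 31-base words of PSMB9 occur in PSMB8 transcripts. The proteasome activator PSME1 was at 213 ± 76.3 CPM in bone marrow libraries and 161 ± 46.4 CPM in lung libraries (SD, n = 4 each).

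Of 13 tested genes of peptide loading, trimming and endoplasmic reticulum chaperones, 6 were higher, 6 lower and 1 at 0 in bone marrow minus lung (median 0.00), and DESeq2 called 3. The disulfide isomerase PDIA3, part of the loading complex, was at 33.5, 60.4, 39.1 and 27.4 CPM in bone marrow libraries and at 18.3, 15.6, 3.23 and 4.14 CPM in lung libraries. The sites did not overlap, and the log2 fold change of 1.96 ± 0.65 (SE) had an edgeR adjusted p of 0.436 and a DESeq2 adjusted p of 0.0496. The other 2 were the chaperone HSPA5 and the glucosidase GANAB. HSPA5 was at 2294, 2153, 1824 and 2177 CPM in bone marrow libraries, at 1338, 880.2, 720.4 and 1148 CPM in lung libraries, and at 4659 CPM in the primary library. No bone marrow library overlapped a lung one, and the primary library was above all 8. For bone marrow minus lung the log2 fold change was 1.05 ± 0.20 (SE), with adjusted p values of 0.298 by edgeR and 0.00558 by DESeq2. For metastases minus the primary library it was -1.67 ± 0.26 (SE), with adjusted p values of 0.466 by edgeR, 0.00836 by DESeq2 and 0.0276 by limma voom. GANAB was at 0, 1.22, 0 and 0 CPM in bone marrow libraries and at 5.43, 7.88, 25.8 and 28.3 CPM in lung libraries (edgeR adjusted p 0.399, DESeq2 adjusted p 0.0119). The chaperone calreticulin, CALR, was at 67.8 ± 28.8 CPM in bone marrow libraries and 70.9 ± 22.1 CPM in lung libraries (SD, n = 4 each); its log2 fold change was -0.06 ± 0.37 (SE). TAPBPL, a tapasin-like editor, had 0 counts in all metastasis libraries and 1.84 CPM in the single primary library. For metastases minus primary its adjusted p was 0.924 by edgeR and 0.0326 by limma voom, and DESeq2 gave none. The aminopeptidase ERAP1 was below the primary library, at 4.91 CPM, in all 8 metastasis libraries, with a log2 fold change of -2.57 ± 0.82 (SE, edgeR adjusted p 0.821).

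**Figure D5:**
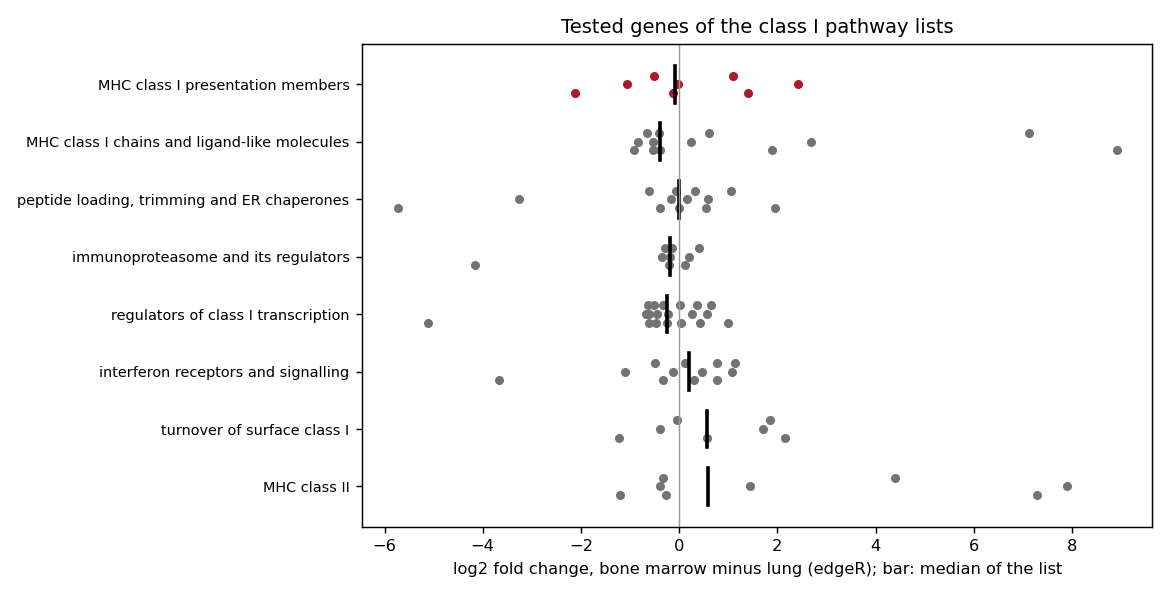
Log2 fold change of bone marrow minus lung for each tested gene of the members and of 7 other pathway lists; the bar is the median of the list. Each list's median lies between -0.38 and 0.58, and each spreads over both signs.

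Of 13 tested class I chains and ligand-like molecules, 6 were higher and 7 lower in bone marrow (median -0.38). CD1D, which presents lipids, was at 0, 9.71, 4.38 and 3.19 CPM in bone marrow libraries and had 0 counts in the 4 lung libraries and the primary library (edgeR adjusted p 0.381, DESeq2 adjusted p 0.0195). FCGRT, the neonatal Fc receptor chain that pairs with B2M, was at 74.0 ± 41.4 CPM in bone marrow libraries and 107 ± 14.6 CPM in lung libraries (SD, n = 4 each). Among regulators of class I transcription, 8 of 19 were higher and 11 lower in bone marrow (median -0.24), with none at an unadjusted edgeR p below 0.05. The interferon factor IRF1 was at 13.8, 23.7, 45.9 and 12.3 CPM in bone marrow libraries, at 42.8, 10.8, 58.1 and 37.1 CPM in lung libraries, and at 6.14 CPM in the primary library. As for HLA-B, the primary value of IRF1 was below all 8, with a log2 fold change of 2.28 ± 1.12 (SE, edgeR adjusted p 0.9999). EED, a Polycomb subunit, had a log2 fold change of 0.35 ± 0.27, and NFYB, a subunit of NF-Y, of -0.61 ± 0.31 (SE), the smallest p in each direction.

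Of 12 interferon receptor and signalling genes, 7 were higher and 5 lower in bone marrow (median 0.20). The kinase JAK1 was at 224 ± 74.9 CPM in bone marrow libraries and 132 ± 50.8 CPM in lung libraries (SD, n = 4 each; edgeR adjusted p 0.494). At 393 CPM, the primary library was above all 8. JAK2 was at 15.7 and 23.7 CPM in lung replicates 1 and 4 and at or below 1.96 CPM in the other 6 metastasis libraries. Of 7 genes of surface class I turnover, 4 were higher (median 0.57). NBR1, an autophagy receptor, was at 47.4, 75.0, 63.9 and 46.7 CPM in bone marrow libraries and at 17.8, 1.20, 7.70 and 25.7 CPM in lung libraries. Its sites did not overlap, and its log2 fold change of 2.15 ± 0.76 (SE) had an edgeR adjusted p of 0.446 and a DESeq2 adjusted p of 0.0750. TMEM127 had a log2 fold change of -1.22 ± 0.65 (SE). Of 8 tested MHC class II genes, 4 were higher and 4 lower in bone marrow (median 0.58), and the summed level of the list was 12.2 to 30.5 CPM in bone marrow libraries, 5.09 to 32.4 CPM in lung libraries and 19.6 CPM in the primary library. HLA-DMB was at 2.66, 0, 4.94 and 0.978 CPM in bone marrow libraries and at 0 in lung, and HLA-DQA1 was at or below 0.872 CPM in every library.

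Leukocytes carry much class I, so genes known as their markers stand beside the members. The counts are of human genes, whereas leukocytes of the host are mouse cells. They are therefore no direct measure of host leukocytes. Of 15 markers, 6 were tested, and the 15 together summed to 1.76 to 9.92 CPM in bone marrow libraries, 2.76 to 38.5 CPM in lung libraries and 4.37 CPM in the primary library, with CSF1R and CD33 at 0 everywhere. PTPRC, the common leukocyte antigen, was at 14.3 CPM in lung replicate 1 and at or below 3.63 CPM elsewhere, and the sites overlapped (edgeR adjusted p 0.772). CD68, a macrophage marker, was at 0.444, 0, 0 and 0 CPM in bone marrow libraries and at 20.9, 7.81, 0.993 and 2.25 CPM in lung libraries, with no overlap (edgeR adjusted p 0.381, DESeq2 adjusted p 0.00346). LYZ, which encodes lysozyme, went the other way without overlap, at 0.888, 1.53, 1.46 and 0.587 CPM in bone marrow libraries and at 0, 0.563, 0 and 0 CPM in lung libraries (edgeR adjusted p 0.497). FCGR3A, S100A8 and S100A9 overlapped between sites. In lung replicate 1, HLA-B and B2M were the lowest of the lung libraries, HLA-C, HLA-E and TAPBP the second highest, TAP2 the second lowest, and TAP1 and PSMB9 had 0 counts. The part of these markers in the differences between sites was not tested.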

How the data were processed

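RNA from TC71 cells was measured in 9 libraries prepared, per the labels' protocols, by template switching from low RNA input. The deposited gene table gives estimated counts by symbol, without depth scaling. The submitters' processing notes name Trim Galore, Salmon and the build hg38. A second deposited table gives the percent of reads per species and the fraction of reads per counting category; how the authors made these 2 kinds of value is not stated. Of 34934 rows, 12 vector rows were left out. After rounding, filterByExpr and TMM scaling, the 3 groups (9 libraries) were fitted together by edgeR 4.0.16, quasi-likelihood, two-sided, and genes were called at a Benjamini-Hochberg adjusted p below 0.05. SE was taken as the absolute log2 fold change divided by the root of F. DESeq2 1.42.0, limma 3.58.1 voom, other scalings and filters, the replicate block and leaving out each metastasis library were alternatives. Positions and 31-base words come from GENCODE 29. No 2 libraries agreed within sampling noise (36 pairs compared).

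The members and lists were chosen with earlier results of these data known. The members are named whatever their result. Of each pathway list, the genes with the smallest edgeR p in each direction for bone marrow minus lung are named, since none passed edgeR's adjusted test; the other genes named from these lists (PDIA3, CALR, TAPBPL, ERAP1 and IRF1) and the cell type markers named were chosen after their values were seen. List symbols NRDC and the MARCH genes were not matched, and CGAS and STING1 were matched by older symbols. The table carries some symbols as dates.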

Additional observations from a re-analysis of the deposited data

Results flagged for a closer look

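In groups of 4 libraries, 1 library stood apart from the rest when its gap to the nearest other, divided by the group's range, passed Dixon's 95% critical value for 4 samples. This held for 5 of 16 member and site groups, or 31.25%, against 17.8% of 33470 such groups over all tested genes; for normally distributed values chance gives about 1 in 20. The ratio was 0.898 for B2M in bone marrow replicate 1 (200.0 CPM, next 58.9), 0.863 for HLA-B in bone marrow replicate 4 (21.8, next 11.99) and 0.841 for TAPBP in bone marrow replicate 3 (4.66, next 0.740). In lung it was 0.925 for HLA-C in replicate 2 (26.6 CPM, next 2.80) and 0.832 for TAP1 in replicate 2 (1.48, next 0.248).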

How the results depend on the processing

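No tested member was called under any alternative run. Only 4 members were tested with at least 5 CPM in 4 libraries, and 7 with the replicate block or the 8 metastasis libraries alone. For bone marrow minus lung, 1 gene of all was called; 3 were with at least 5 CPM in 4 libraries, 468 with DESeq2, 6 with limma voom and 0 with the replicate block, and 0 when any 1 of the 8 metastasis libraries was left out, whereas 1 was called with those 8 alone. For metastases minus primary, 0 were called; DESeq2 called 97 and limma voom 48. Correlations of deviations between libraries of the same number were near 0 (-0.06 to 0.04), which cannot tell whether such libraries share a mouse. Only bone marrow replicate 2 was best matched by the lung library of its own number (0.037, next 0.017). For bone marrow minus lung, the log2 fold change of PSMB9 turned to 2.70 with limma voom and 2.67 with the replicate block, and ran from -0.55 to 1.92 over single libraries left out (0.13 without bone marrow replicate 1, 0.14 without bone marrow replicate 3); that of B2M ran from -0.84 to 0.22 (0.18, 0.12 and 0.19 without bone marrow replicates 2, 3 and 4). For metastases minus primary, TAP1 turned to -0.015 with library size alone, -2.04 with limma voom, -0.996 without bone marrow replicate 4 and -1.12 without lung replicate 2 (range -1.12 to 0.24 over single libraries left out); limma voom also turned TAPBP to -0.49 and PSMB9 to -0.56. The cause was not tested. Depth limits the scarce members most: TAP1, TAP2 and TAPBP rest on few counts in most libraries. The block applies to the 8 metastasis libraries only.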
